A study of Mus musculus with 9 samples.

Results

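The polyamine metabolism genes were described in the tibialis anterior muscle of mice with and without dexamethasone (DEX) injection and turmeric extract (TE) supplementation. They were 9 genes chosen by name for their place in the pathway, Odc1, Srm, Sms, Smox, Sat1, Paox, Oaz1, Oaz2 and Azin1. Earlier results of these data were known when they were chosen. A probe set, which is a group of short probes for the transcripts of a gene, was used only where the array annotation gave it exactly 1 gene symbol. This gave 14 probe sets for 7 of the 9 genes, out of 18193 genes and 45037 probe sets in all. Sms (spermine synthase) had 3 probe sets, all with several symbols, and Paox (an oxidase of acetylated polyamines) had 0, so neither was analysed here. The arrays were from 15-week-old male C57BL/6J mice on an AIN93-based diet, with 3 mice and 3 arrays in each of 3 groups. Control mice received saline. Mice of the DEX group received 5 mg/kg body weight of DEX, a synthetic glucocorticoid, intraperitoneally every day for 7 days. The DEX + TE group received the same injections and a diet with 2% TE. The protocol starts this diet 5 days before the first injection, whereas the titles of these arrays place TE after DEX, and the files do not settle the order. There was no group with TE and saline, and the mice were picked because their body and muscle weights were near the average, so the arrays do not show the whole range of the animals.

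Polyamines are small positively charged molecules that bind nucleic acids and are needed for protein synthesis and growth. ODC, the product of Odc1, makes putrescine from ornithine, and the synthases encoded by Srm and Sms turn putrescine into spermidine and then spermine. Spermine oxidase, encoded by Smox, converts spermine back to spermidine and releases hydrogen peroxide, while SAT1 acetylates polyamines for oxidation by PAOX or for export. The antizymes OAZ1 and OAZ2 bind ODC and send it to the proteasome, and AZIN1 binds antizymes and frees ODC. In mouse skeletal muscle, Odc1 and Smox are known as genes that respond to androgens, and Smox is known for low expression in several kinds of muscle atrophy.

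The promoters of Smox and Odc1 are shown because these genes encode the oxidase and the first enzyme of the pathway, and their transcripts gave opposite directions by value after DEX injection. The sequences are from RefSeq on GRCm38.p6, run 5′ to 3′ on the strand of the gene from 250 bases before to 50 bases after its start, and lie at chr2:131491612-131491911 (plus strand, Smox) and chr12:17544623-17544922 (plus strand, Odc1). Capitals mark the GC box, GGGCGG or its reverse complement CCGCCC.
Smox: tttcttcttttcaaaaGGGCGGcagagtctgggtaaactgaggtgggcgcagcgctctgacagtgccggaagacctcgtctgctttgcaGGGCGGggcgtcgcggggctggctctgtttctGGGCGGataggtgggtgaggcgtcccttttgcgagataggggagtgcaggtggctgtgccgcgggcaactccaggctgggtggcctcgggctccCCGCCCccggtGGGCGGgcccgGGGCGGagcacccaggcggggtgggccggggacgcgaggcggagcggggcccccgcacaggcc
Odc1: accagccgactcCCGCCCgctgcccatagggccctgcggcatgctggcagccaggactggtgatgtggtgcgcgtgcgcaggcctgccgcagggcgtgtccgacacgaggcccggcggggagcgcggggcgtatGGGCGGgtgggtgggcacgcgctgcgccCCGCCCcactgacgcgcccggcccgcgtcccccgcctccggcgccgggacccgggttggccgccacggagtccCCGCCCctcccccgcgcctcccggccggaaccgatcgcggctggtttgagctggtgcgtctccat
The GC box was found 6 times in the Smox promoter and 4 times in that of Odc1, and 35.7% of 32851 promoters of 300 bases held it on either strand. The E-box CACGTG (in 7.15% of promoters) and the TATA box TATAAA (in 13.6%) were not found in either sequence. The glucocorticoid half-site AGAACA, searched with its reverse complement TGTTCT, was not found in either sequence, and was found once each in the Sat1 and Oaz2 promoters (in 19.0% of promoters). The table held promoters for 7 of the 9 genes. These are matches of letters and show no binding.

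The array signal is a linear intensity, and 50 was used as the level below which a probe set was taken as near background. The medians of the arrays were 76.0 to 86.2 for control, 71.3 to 77.7 for DEX and 84.7 or more for DEX + TE. The share of probe sets at 50 or more was 58.5% to 65.2%. All 14 probe sets passed the filter on low signal, Oaz2 1442541_at only through the injected groups, with 29269 probe sets tested in all. Of 4 genes that glucocorticoids are known to raise, Fkbp5 was called higher in the DEX group at 2 probe sets (log2 fold changes 2.26 and 1.92, limma adjusted p = 0.0134 at 1416125_at and 0.0128 at 1448231_at). The first call was lost without control replicate 2 (adjusted p = 0.0529) and without control replicate 3 (0.0536), and Rank Product gave neither (0.115 and 0.157). The other genes did not follow Fkbp5 at their brightest probe sets. Tsc22d3 (1420772_a_at) and Per1 had lower values on every DEX array than on any control array (log2 fold changes -0.80 and -1.38, limma adjusted p = 0.0685 and 0.0609). Tsc22d3 was called lower with the mean of both injected groups against control (-0.79, adjusted p = 0.0385), a call that was lost without 8 of the 9 single arrays (adjusted p from 0.0737 to 0.129 in these) and by Rank Product (0.472). Zbtb16 gave 0.08 for DEX against control at its brightest probe set, 1439163_at (adjusted p = 0.891). Its other probe sets were higher by value, 0.32 at 1419874_x_at (no overlap, adjusted p = 0.371) and 0.46 at 1427638_at (overlap, adjusted p = 0.452). The median log2 fold change of the 4 genes, each at its brightest probe set, was -0.36. The 8 skeletal muscle fiber markers were all measured. Fewer cells of a type and less RNA per cell cannot be told apart in these whole muscle samples.

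None of the 14 probe sets of the polyamine genes was called in any of 4 comparisons. A call needed a limma p, adjusted over all probe sets, under 0.05 together with a log2 fold change of 0.6 or more in either direction. For DEX against control, 0 of 14 were called against 0.502% of all probe sets. Rank Product, the test named in the methods, called 0 when run here on the deposited values. Rank Product did not call Fkbp5 at a log2 fold change of 2.26 either (0.115), so its 0 says little about smaller changes. At an unadjusted p under 0.05, 2 of 14 passed, both Smox and both lower, against 14.4% of all probe sets. The 3 arrays of each group did not overlap at 5 of 14, all lower in the DEX group, against 21.2% of all probe sets. The median log2 fold change of the 14 was -0.06, and that of all probe sets was -0.03.

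**Figure D1:**
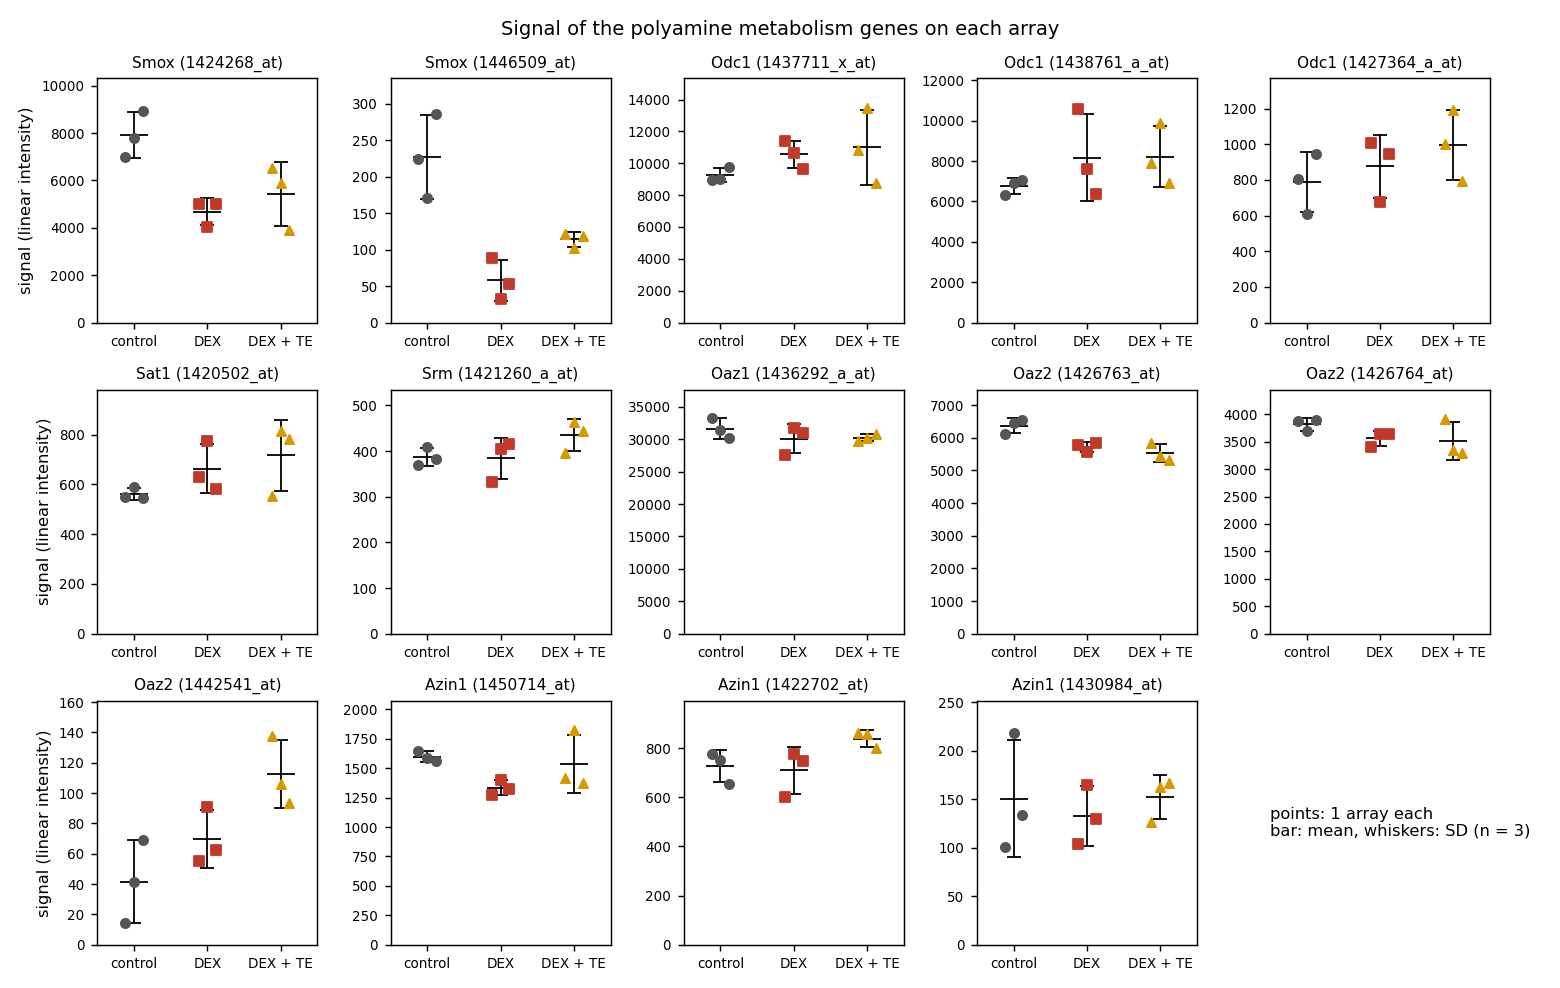
Signal (linear intensity, axes from 0) of each of the 14 probe sets on the 9 arrays. Points are arrays, bars are group means and whiskers are SD (n = 3). The control arrays of both Smox probe sets sit above all 6 DEX and DEX + TE arrays, while the Odc1 groups overlap.

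Smox had the lowest log2 fold changes of the polyamine genes after DEX injection. The first probe set, 1424268_at, gave signals of 7007, 7776 and 8952 on the control arrays. The DEX arrays gave 5017, 4028 and 5003, and the DEX + TE arrays gave 6531, 5872 and 3927. All 6 arrays of injected mice were below the lowest control array, and DEX + TE replicate 3 was below every DEX array. The means were 7912 ± 979, 4682 ± 567 and 5444 ± 1354 (SD, n = 3). The level was 1.69-fold lower in the DEX group (log2 fold change -0.76, SE 0.21, 95% interval -1.25 to -0.26), with a limma adjusted p of 0.175 that did not pass the test.

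The second Smox probe set, 1446509_at, was dim. Its signals were 224, 171 and 286 on the control arrays. They were 88.4, 32.6 and 53.4 on the DEX arrays and 121, 103 and 118 on the DEX + TE arrays. The 3 groups did not overlap, with the order control, DEX + TE and DEX, and 1 of the 3 DEX arrays was below 50. For DEX against control the log2 fold change was -2.05 (SE 0.36, 95% interval -2.88 to -1.22), or 4.15-fold lower, with a limma adjusted p of 0.0642. The call of this probe set turned on the processing. It was called when only probe sets with a group mean of 100 or more were tested (adjusted p = 0.0292), with 50 added to each signal (0.025, log2 fold change -1.37), with a mean-variance trend in limma (0.00862), and without DEX replicate 1 (0.0416, log2 fold change -2.41). The bright probe set was called with the mean-variance trend only (adjusted p = 0.0214). The log2 fold change stayed negative for both probe sets under every alternative run for DEX against control.

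**Figure D2:**
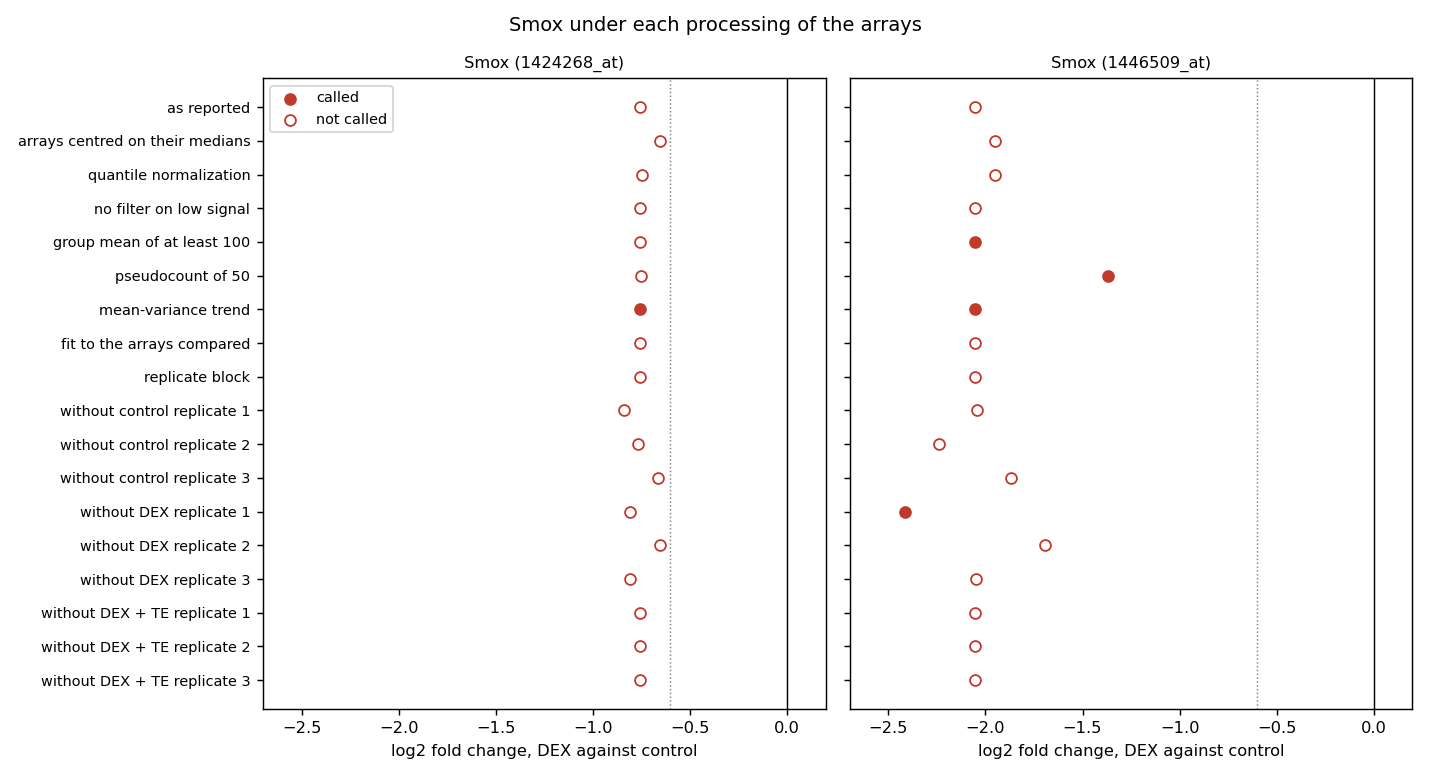
Log2 fold change of both Smox probe sets for DEX against control, as reported and under each processing listed, except the 3 alternatives that change only the test, the call rule or the unit of the gene. Filled points were called and the dotted line marks -0.6. All points lie below -0.6, and the filled points are 1 for 1424268_at and 4 for 1446509_at.

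TE supplementation gave no call at Smox. For DEX + TE against DEX, the log2 fold change of 1446509_at was 1.08 (95% interval 0.26 to 1.91, adjusted p = 0.56), and that of 1424268_at was 0.19 (-0.30 to 0.68, adjusted p = 0.857). The first interval excludes 0 and the second does not. Both probe sets had lower means in the DEX + TE group than in the control group, with log2 fold changes of -0.57 (1424268_at, adjusted p = 0.311) and -0.97 (1446509_at, adjusted p = 0.302). With the mean of DEX and DEX + TE against control, the log2 fold changes were -0.66 (adjusted p = 0.15) and -1.51 (adjusted p = 0.0783). An exact permutation test, 2-sided, over 6 against 3 arrays gave p = 0.0238 for each, the smallest that this design can give, and with 3 against 3 arrays it cannot go below 0.1. These comparisons share arrays. Over the 9 arrays the log2 signals of the Smox probe sets had a Pearson r of 0.801, and 0.366 after the group means were removed, as a description across arrays that share their groups.

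Marker genes of muscle fibers and of other cells also differed between the groups. Sums and fold changes are of each gene's brightest tested probe set unless another is named. The summed signal of the 8 fiber markers was 463291 to 640343 on the control arrays, 363717 to 460689 on the DEX arrays and 447494 to 486563 on the DEX + TE arrays. All 8 had lower means on the DEX arrays, 7 of them at an unadjusted p under 0.05 against 14.4% of all probe sets, with a median log2 fold change of -0.42. Their other probe sets gave -0.50 and -0.35 (Myh1), -0.26 and 0.09 (Tnni2), -0.12 (Myh4) and -0.01 (Ckm). The 4 slow fiber markers had the opposite sign, with a median of 0.68 and sums of 772 to 932, 999 to 2834 and 1036 to 1727 in the order control, DEX and DEX + TE. Of these, Myh7, the slow myosin heavy chain gene, gave 2.22 (adjusted p = 0.209) with no overlap, and 1 of its 3 control arrays was below 50. DEX replicate 2 was the highest DEX array at all 4 slow fiber markers and gave the top DEX sum. Tnni1 gave 105, 101 and 107 on the control arrays and 97.0, 278 and 96.1 on the DEX arrays, so its positive sign came from that array. The 6 fibroblast markers summed to 25982 to 39246, 16637 to 19322 and 23898 to 26236 in the same order, and 3 of them were called lower in the DEX group. Of these calls Rank Product kept Col3a1 (0.0477) and not Col1a1 (0.187) or Pcolce (0.357). Dcn, with a control mean of 21173 against 7267 for Col3a1, made up most of the sums. For DEX + TE against control, Dcn gave a log2 fold change of -0.08, while Col3a1 was still called lower (-2.04, adjusted p = 0.0335). The 8 macrophage markers summed to 1594 to 2413, 1537 to 2054 and 2330.0 to 2472. Of 5 neutrophil markers 2 were tested, both higher at an unadjusted p under 0.05 for DEX against control, where 14.4% of all probe sets passed this level. They summed to 88.8 to 151, 287 to 597 and 178 to 441. Csf3r, also on the array, was below 50 on all control and DEX arrays and did not pass the filter. One of the 2 tested, S100a9, was below 50 on all control arrays and at least 3.21-fold higher on the DEX arrays. It passed the filter only through injected mice, so its p adds little. Of 5 adipocyte markers 4 were tested, and none overlapped between DEX and control, where 21.2% of all probe sets did not overlap. Adipoq (log2 fold change 1.23, adjusted p = 0.103), Cidec (1.22, adjusted p = 0.188) and Lep were higher and Fabp4 was lower. Cidec was below 50 on 2 of its 3 control arrays and passed the filter only through injected mice. Its control mean on the log2 scale, 5.25, was also below the level of 50. The Cidec fold is therefore a fold against a signal near background. Adipoq was called higher for DEX + TE against control (2.19, adjusted p = 0.0261), and this call was lost without 7 of the 9 single arrays (adjusted p up to 0.0902) and by Rank Product (0.139). The adipocyte sums were 20648 to 24601, 16199 to 19760 and 19897 to 22058. They were nearly all Fabp4, with a control mean of 21965 at 1417023_a_at against 360 for Adipoq, so they do not show the 3 markers that were higher. The other Fabp4 probe sets gave -0.69 (1424155_at, no overlap), -0.14 (1451263_a_at, overlap) and 0.08 (1425809_at, overlap) for DEX against control. Of the marker lists, Hba-a1 and Cd3e were below 50 on every array. The part of these shifts in the Smox difference was not tested.

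Odc1 was higher by value in the DEX group, but the groups overlapped at its 3 probe sets. The brightest, 1437711_x_at, gave 8956, 9018 and 9759 on the control arrays. It gave 11368, 10647 and 9652 on the DEX arrays and 10830.1, 13441 and 8730.25 on the DEX + TE arrays. The lowest DEX array lay within the control range, and the DEX + TE arrays spread on both sides of it. The log2 fold changes for DEX against control were 0.19 (1437711_x_at, 95% interval -0.19 to 0.57), 0.24 (1438761_a_at) and 0.15 (1427364_a_at), with adjusted p-values from 0.64 to 0.805. At 1438761_a_at, DEX replicate 1 stood at 10566, against 7587 and 6365 for the other DEX arrays and 6321, 6917 and 7072 on the control arrays. The DEX + TE arrays gave 7879.6, 9887 and 6896 there. At 1427364_a_at the signals were 807, 611 and 946 on the control arrays, 1006, 674 and 947 on the DEX arrays and 1004, 1189 and 796 on the DEX + TE arrays. The log2 fold changes for DEX + TE against DEX were 0.04, 0.02 and 0.19 in the same order of probe sets (adjusted p from 0.878 to 0.985). The suffix _x marks a probe set in which some probes may match other transcripts.

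Srm, the spermidine synthase gene, gave nearly equal means in the control and DEX groups. Its signals were 370.1, 409 and 383 on the control arrays and 332, 404 and 415 on the DEX arrays. They were 395, 465 and 444 on the DEX + TE arrays. For DEX against control the log2 fold change was -0.02 (95% interval -0.31 to 0.27, adjusted p = 0.96), and for DEX + TE against DEX it was 0.18 (-0.10 to 0.47, adjusted p = 0.763). The groups overlapped in both comparisons.

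Sat1, the acetyltransferase of polyamine breakdown, was higher by value in injected mice. It gave 547, 588 and 547 on the control arrays. The DEX arrays gave 631, 773 and 583, and the DEX + TE arrays gave 553, 816 and 781. DEX replicate 3 and DEX + TE replicate 1 fell within the control range. A log2 fold change of 0.23 was found for DEX against control (SE 0.18, 95% interval -0.18 to 0.65, adjusted p = 0.594) and 0.33 for DEX + TE against control (adjusted p = 0.446). With both injected groups against control, the exact permutation p was 0.0714 (6 against 3 arrays, log2 fold change 0.28).

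The antizyme genes differed little at their bright probe sets. Oaz1 gave 33329, 31439 and 30135 on the control arrays, 27497, 31746 and 30996 on the DEX arrays and 29755, 30139 and 30836 on the DEX + TE arrays. The Oaz1 groups overlapped, with a log2 fold change of -0.07 for DEX against control (95% interval -0.30 to 0.15, adjusted p = 0.767), and its sign turned under quantile normalization (0.15) and with each array centred on its median (0.03). A further Oaz1 probe set was shared with a pseudogene and was not used. Oaz2 at 1426763_at gave 6099, 6451 and 6552 on the control arrays, 5766, 5555 and 5837 on the DEX arrays and 5835, 5432 and 5303 on the DEX + TE arrays. All 6 injected mice were below the control arrays, but the difference was small, with a log2 fold change of -0.15 for DEX against control (95% interval -0.36 to 0.05, adjusted p = 0.476) and -0.18 for both injected groups (adjusted p = 0.315, exact permutation p = 0.0238 over 6 against 3 arrays). At 1426764_at the DEX group was also below the control group on every array (log2 fold change -0.10, adjusted p = 0.695). With arrays centred on their medians that value was 0.00094.

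The dim Oaz2 probe set 1442541_at went the other way. It gave 14.2, 41.1 and 69.0 on the control arrays, 55.0, 91.1 and 62.5 on the DEX arrays and 138, 106 and 93.7 on the DEX + TE arrays. Of the control arrays, 2 of 3 were below 50, and the DEX + TE arrays were above all others. The control mean on the log2 scale, 5.10, was also below the level of 50, so folds against control are folds against a signal near background. The log2 fold change for DEX + TE against control was 1.70 (95% interval 0.44 to 2.95, unadjusted p = 0.0145, limma adjusted p = 0.243), and it was 0.87 with 50 added to each signal and 1.06 without control replicate 1, the array at 14.2. The value for DEX + TE against DEX was 0.71 (-0.54 to 1.96, adjusted p = 0.787). Its log2 signal had a Pearson r of -0.489 with 1426763_at and -0.31 with 1426764_at over the 9 arrays, while the bright probe sets had an r of 0.732 with each other. After the group means were removed these were 0.577, 0.235 and 0.564, so the negative values lay between the groups and not within them.

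Azin1, the antizyme inhibitor gene, had 3 probe sets. The brightest, 1450714_at, gave 1647, 1586 and 1560.0 on the control arrays and 1276, 1399 and 1327 on the DEX arrays, which did not overlap. The DEX + TE arrays gave 1413, 1823 and 1370.0, with replicate 2 above every control array. The log2 fold change was -0.26 for DEX against control (95% interval -0.56 to 0.04, adjusted p = 0.406) and 0.19 for DEX + TE against DEX (adjusted p = 0.762). At 1422702_at the DEX + TE arrays (859.6, 857 and 799) were above those of the DEX group (602, 778 and 747) and of the control group (778, 749.6 and 656). DEX + TE against DEX gave 0.25 there on the log2 scale (95% interval -0.05 to 0.55, adjusted p = 0.7). At 1430984_at all groups overlapped, with signals from 100.5 to 218.

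For DEX + TE against DEX, 0 of the 14 probe sets were called against 0.0137% of all probe sets, and 0 by Rank Product. At an unadjusted p under 0.05 there was 1 of 14, Smox 1446509_at, higher, against 7.76% of all probe sets. The groups did not overlap at 3 of 14, all higher in the DEX + TE group, against 14.8% of all probe sets. These were Smox 1446509_at, Azin1 1422702_at and Oaz2 1442541_at. The median log2 fold change of the 14 was 0.19 and that of all probe sets was 0.05. With arrays centred on their medians, the median of all probe sets moved to -0.20, and 10 of the 14 values changed sign, Smox 1424268_at among them (-0.06).

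For DEX + TE against control, 0 of 14 were called against 0.379% of all probe sets, and 0 by Rank Product. At an unadjusted p under 0.05 there were 3 of 14 against 13.8%, both Smox probe sets lower and Oaz2 1442541_at, near background on the control arrays, higher. The groups did not overlap at 5 of 14 against 22.7%, with 2 higher and 3 lower. With the mean of DEX and DEX + TE against control, 0 of 14 were called against 0.929%, and 0 by Rank Product. At an unadjusted p under 0.05 there were 4 of 14 against 15.8%, that Oaz2 probe set again among them, and 3 of 14, all lower, did not overlap against 10.9%. These 3 were both Smox probe sets and Oaz2 1426763_at.

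**Figure D3:**
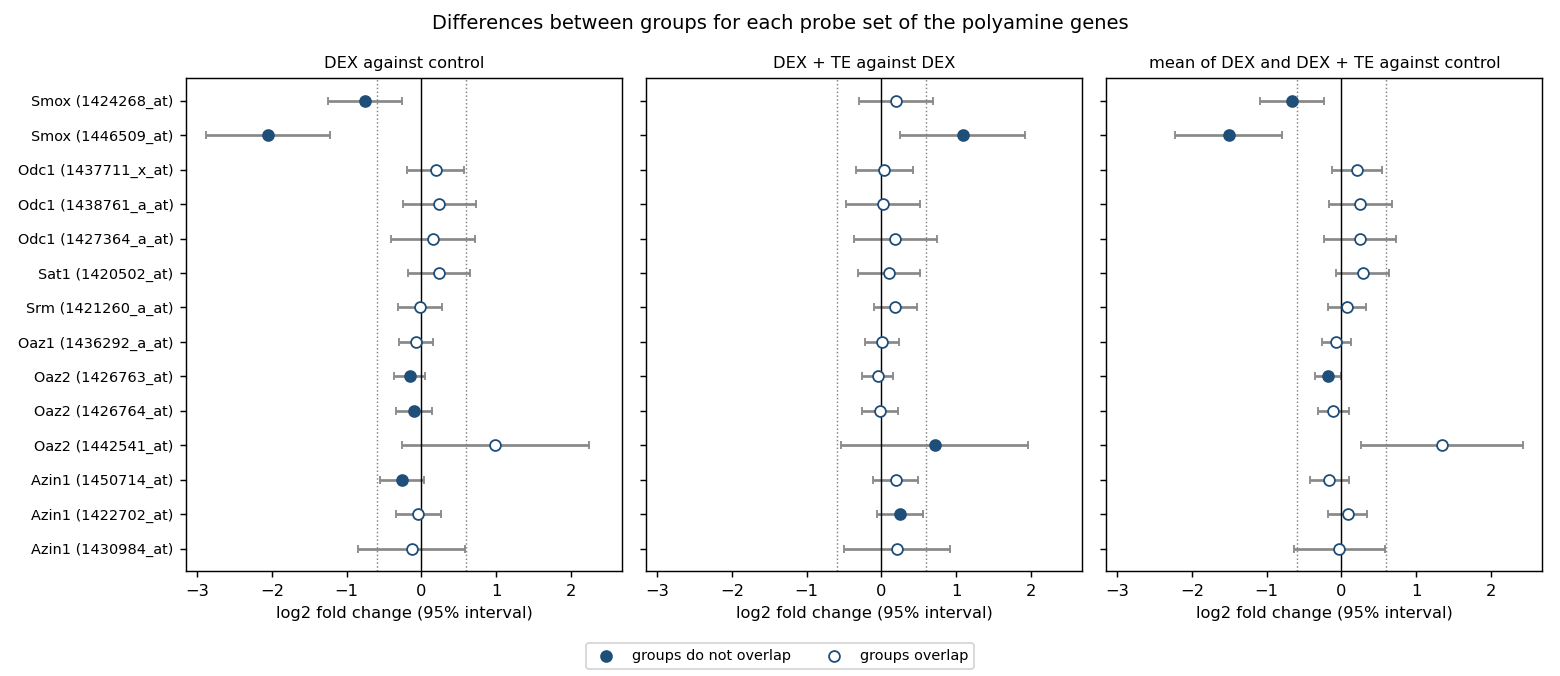
Log2 fold changes with 95% intervals of the 14 probe sets in 3 comparisons (filled, groups do not overlap; dotted lines, ±0.6). Both Smox probe sets lie left of -0.6 for DEX against control, at -0.76 and -2.05, and the other 12 lie between -0.26 and 0.99.

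Other genes that feed, salvage or use polyamines were not called in limma either. Of 22 listed, 19 had a probe set with 1 symbol and 15 were tested, each at its brightest probe set. Oaz3 passed the filter only through the DEX + TE group, and its control and DEX means on the log2 scale (5.11 and 5.29) were below the level of 50. For DEX against control, 0 were called, against 0.502% of all probe sets. An unadjusted p under 0.05 was reached by 2 higher genes (Oat and Satl1) and 1 lower (Sat2), against 14.4% of all probe sets. Satl1 is in this and in the later counts of higher genes against control with signals below 50 on every control array, and it passed the filter only through injected mice. The median log2 fold change of the 15 was 0.14, against -0.03 over 13691 genes. For DEX + TE against DEX, 0 of 15 reached an unadjusted p under 0.05, against 7.76% of all probe sets, with a median of -0.03 against 0.04 over all genes. At that level 3 of 15 were higher and 0 lower for DEX + TE against control, against 13.8% of all probe sets. With the mean of both injected groups 2 were higher and 1 lower, against 15.8%. The medians of these comparisons were 0.10 and 0.11 in that order (0.085 and 0.105 with Satl1 at the bound its signals allow). Rank Product called 1 of the 15, Satl1, with both injected groups against control, where its signals give no more than at least 1.04-fold higher.

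Oat encodes ornithine aminotransferase, which turns ornithine, the substrate of ODC, toward glutamate and proline. Its signals were 6737, 6207 and 6297 on the control arrays. They were 11981, 8471 and 9784 on the DEX arrays and 8854, 8913 and 8062 on the DEX + TE arrays. All 6 arrays of injected mice were above the control arrays. DEX injection gave a log2 fold change of 0.64 against control (SE 0.14, 95% interval 0.31 to 0.96, adjusted p = 0.11) and -0.21 for DEX + TE against DEX (-0.54 to 0.11, adjusted p = 0.756). With both injected groups against control it was 0.53 (adjusted p = 0.0968). Oat was called for DEX against control with the mean-variance trend (adjusted p = 0.0049) and under no other alternative.

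The other antizyme and acetyltransferase genes were Oaz3, Sat2 and Satl1. Sat2, a relative of Sat1, gave 317, 333 and 247 on the control arrays and 226, 249 and 199 on the DEX arrays, with overlap (log2 fold change -0.41, adjusted p = 0.315). Satl1 was below 50 on all control arrays and at 64.5, 58.1 and 43.9 on the DEX arrays, which is at least 1.10-fold higher (adjusted p = 0.142). No fold can be given for DEX + TE against control, since the mean of the DEX + TE arrays on the log2 scale was also below the level of 50. Of the 4 genes of hypusine, the modified lysine that is made from spermidine, Eif5a carries the residue and Dhps and Dohh make it. Eif5a gave a log2 fold change of -0.06 (95% interval -0.26 to 0.15, adjusted p = 0.799) for DEX against control. Of the transport genes, Atp13a3, a polyamine transporter of endosomes, gave 0.14 (adjusted p = 0.537) and Slc3a2, an amino acid carrier subunit, 0.11 (adjusted p = 0.798).

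**Figure D4:**
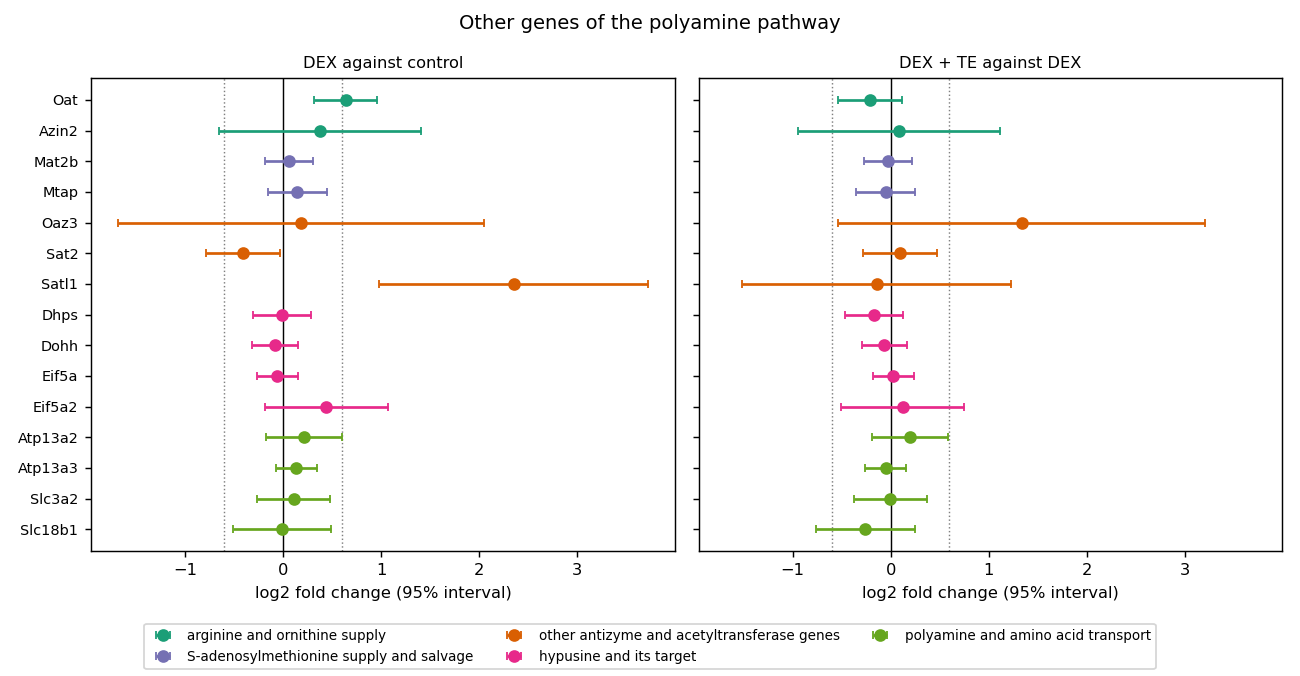
Log2 fold changes with 95% intervals of the 15 other pathway genes, each at its brightest probe set, for DEX against control and DEX + TE against DEX, coloured by role. Oat lies at 0.64 and -0.21. Satl1 and Oaz3 are dim and have the widest intervals, and the Satl1 point for DEX against control is a fitted value against control arrays that were all below 50.

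Of 6 genes tied to Odc1 or Smox in muscle, 5 were measured. Cdkn1a, which encodes the cell cycle inhibitor p21, gave 504, 456 and 518 at 1421679_a_at on the control arrays. It gave 3414, 2009 and 1473 on the DEX arrays and 1283, 1214 and 1303 on the DEX + TE arrays. It was called higher in the DEX group (log2 fold change 2.14, limma adjusted p = 0.031), and at its brighter probe set 1424638_at the value was 1.83 (adjusted p = 0.0636). The call at 1421679_a_at was lost without any single control array (adjusted p = 0.0738, 0.111 and 0.0955), without DEX replicate 2 (0.0895), without any single DEX + TE array (0.0778, 0.069 and 0.0681) and by Rank Product as run here (0.121). In the paper, Cdkn1a passed the authors' own Rank Product cut-off as higher after DEX injection. By the methods that run used values of Robust Multi-array Average, with probes under a signal of 50 removed. The groups did not overlap, and the log2 fold change stayed between 1.81 and 2.41 when an array was left out. For DEX + TE against DEX the value at 1421679_a_at was -0.77 (adjusted p = 0.584) with no overlap, and at the brighter 1424638_at it was -0.64 (adjusted p = 0.687) with overlap. Myc, a transcription factor known to drive Odc1, gave 128, 205 and 198 on the control arrays and 42.0, 40.8 and 177 on the DEX arrays (log2 fold change -1.37, adjusted p = 0.322), with overlap. Without DEX replicate 3, the array at 177, Myc passed the test (adjusted p = 0.0468), but both DEX arrays that were then left lay below 50, so the level was at least 3.47-fold lower there and its size is not known. Hdac4, Max and Mxi1 were not called.

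Odc1, Smox and Sat1 were each taken at their brightest probe set. Each of 13691 genes was compared at all its tested probe sets and kept at the one with the highest Pearson r. The genes with the pattern most like those of Odc1, Smox and Sat1 were ranked by this r of log2 signal over the 9 arrays. For Smox these were Myorg (0.971), Fahd1 (0.953) and Fam120b (0.938). Myorg gave means of 1899 ± 108, 1461 ± 150.1 and 1481 ± 209 in the control, DEX and DEX + TE groups (SD, n = 3). For Odc1 they were Prelid1 (0.921), Gclc (0.91) and Phf2 (0.902), and for Sat1 Rap1b (0.958), Ankrd2 (0.951) and Gga3 (0.946). These values are a description over 9 arrays that share 3 groups.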

How the data were processed

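The deposited values are 1 intensity per probe set and array, from Affymetrix GeneChip arrays hybridized by the authors with cRNA from 250 ng of total RNA. The intensities are linear, with trimmed means that are equal between arrays, so they are not the log2 values of Robust Multi-array Average, which the methods name. Which software wrote them is not stated in the sources used. In their own analysis the authors removed probes under a signal of 50, and the deposited values still hold them.

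From 45101 probe sets, 64 control sets were left out. Log2 signals were taken with no offset, and 29269 probe sets with a group mean log2 signal of at least log2 of 50 were tested. Limma 3.58.1 (R 4.3.3) took in all 9 arrays, with Benjamini-Hochberg adjustment over all probe sets tested. Calls had an adjusted p under 0.05 with a log2 fold change of 0.6 or more in either direction. Rank Product with 100 permutations (Python 3.11.15), 3 arrays against 3 or 6 against 3, was an alternative. The scripts were tested on simulated data. The number of arrays limits the precision.

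Each member was reported, with other pathway genes, regulators and check genes from fixed lists, those called and up to 4 others per list, and the 3 genes most like Odc1, Smox and Sat1. The members and lists were chosen with earlier results of these data known. Symbols came from the array annotation, where 34945 probe sets had 1 symbol, 932 several and 9160 none. Promoters were from RefSeq on GRCm38.p6. Alternatives changed the scaling, filter, pseudocount, variance model, arrays, block, call rule, probe set summary and test, and left out each array.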

Additional observations from a re-analysis of the deposited data

How the results depend on the processing

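No probe set of the polyamine genes lost a call, since none was called. Beside the Smox calls given above, with both injected groups against control Smox 1446509_at was called with the filter at 100 (adjusted p = 0.0393), with 50 added (0.0304), with the mean-variance trend (0.0171) and without DEX replicate 1 (0.0423), and 1424268_at with the trend (0.0168). The called polyamine probe sets were therefore 1, 1 and 2 with the filter at 100, 50 added and the trend, in each of these 2 comparisons, and 0 to 1 when an array was left out. Of the other pathway genes, 1 was called for DEX against control with the trend, and 1 with both injected groups against control by Rank Product, and 0 to 1 there without an array (1 without control replicate 2).

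The Cdkn1a call (1421679_a_at) was also lost with no filter (adjusted p = 0.0758), with only the arrays compared (0.144) and with the replicate block (0.096). The Fkbp5 calls were also lost with only the arrays compared (0.106 and 0.0953), and that at 1448231_at with the block (0.0657). The Tsc22d3 call was also lost with centring (0.0766), no filter (0.114) and the block (0.127), and the Adipoq call with no filter (0.0608), only the arrays compared (0.091) and the block (0.0631). Tsc22d3 and Per1 were called for DEX against control with the filter at 100 (0.0301 and 0.028), 50 added (0.0389 and 0.03) and the trend (0.00142 and 0.00185), and Tsc22d3 without DEX replicate 1 (0.0449). Myh7 (0.046) and Adipoq (0.00635) were called there with the trend. The Zbtb16 value at 1439163_at turned without DEX replicate 1 (-0.15).

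The replicate numbers did not pair the mice. Deviations from the group means of same-numbered arrays had correlations of -0.0205 to 0.0482, and 3 of 9 arrays correlated best with their own number. With the replicate block, the calls over the array went from 147, 4, 111 and 272 (DEX against control, DEX + TE against DEX, DEX + TE against control, both against control) to 41, 0, 30 and 42. In the same order the other counts were 53, 0, 44 and 64 with no filter, and 341, 0, 222 and 441 with the filter at 100. The mean-variance trend gave 563, 409 and 569 for DEX against control, DEX + TE against control and both. With 50 added they were 283, 0 and 216 for the first 3, and with only the arrays compared 18, 0 and 55. Rank Product gave 34 for DEX + TE against DEX, and centring gave 164 for the last. Without single arrays they were 51 to 101, 0 to 3, 31 to 87 and 74 to 211.

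With each array centred on its median, the median of all probe sets was 0.08, -0.20 and -0.10 in the first 3 comparisons. The median of the other pathway genes moved from 0.14, -0.03 and 0.10 to 0.24, -0.28 and -0.053, and without single arrays it was 0.026 to 0.21, -0.047 to 0.039, 0.07 to 0.12 and, from 0.11 for the last, 0.027 to 0.15. For DEX against control, centring turned Srm (0.083), Azin1 1422702_at (0.0598), Oaz2 1426764_at (0.00094) and Oaz1 (0.028). For DEX + TE against DEX it turned Sat1 (-0.15), Srm (-0.069), Azin1 (-0.0032, -0.043 and -0.061), Smox 1424268_at (-0.062), Odc1 (-0.065, -0.21 and -0.23) and Oaz1 (-0.24), and for DEX + TE against control Azin1 1430984_at (-0.073). Quantile normalization turned Oaz1 (0.15 for DEX against control, -0.0601 for DEX + TE against DEX, 0.086 for DEX + TE against control and 0.12 for both), Oaz2 1426764_at (0.014 for DEX + TE against DEX) and Azin1 1430984_at (-0.022 for DEX + TE against control). For DEX against control, Eif5a turned with centring (0.044) and quantile normalization (0.061). The mean over probe sets turned Oaz2 1426763_at (0.24, 0.21, 0.46 and 0.35) and Azin1 1450714_at (0.072 for DEX + TE against control). Leaving out an array turned values of Azin1 1422702_at (-0.12 to 0.071 for DEX against control), 1430984_at (-0.39 to 0.17 for DEX against control, -0.18 to 0.38 for DEX + TE against control and -0.28 to 0.28 for both) and 1450714_at (-0.20 to 0.0072 for DEX + TE against control), Odc1 1427364_a_at (-0.018 to 0.33) and Srm (-0.0796 to 0.083) for DEX against control, and, for DEX + TE against DEX, Oaz1 (-0.053 to 0.051), Oaz2 1426764_at (-0.10 to 0.024), Odc1 (-0.12 to 0.20 and -0.14 to 0.23) and Sat1 (-0.0011 to 0.28). None of these turned values was called in either setting, and the cause was not tested.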
